A study of Cynodon dactylon with 10 samples.

Results

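Leaves of bermudagrass seedlings that had gone 7 days without water were compared with leaves of unstressed seedlings, over all assembled contigs of the deposited table. The 4 libraries compared, 2 from droughted and 2 from control plants, are among 10 in all. The other 6 come from seedlings kept for 7 days with 400 mM NaCl, under water or at 42 °C, with 2 libraries for each. All plants carry the label WT and were 3 weeks old when the treatments began. Bermudagrass (Cynodon dactylon) is a perennial turf and forage grass, and the tissue of every library is leaf. The measure was RPKM, the reads relative to the length of a contig and the size of a library. Comparisons between libraries still depend on how these are scaled, and the scaling factors ran from 0.908 to 1.10. A contig entered the comparison if it reached at least 1 RPKM in 2 or more of the 10 libraries, which 26884 of the 28456 contigs did. Among those 26884 are 817 contigs listed at 0 in all 4 control and drought libraries, and 2075 that stayed under 1 RPKM in each of the 4. Whether the 2 libraries of a group stem from different plants is not stated in the labels. The p-values therefore reflect only how far these libraries differ, and that difference may be technical.

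Grass leaves that dry out close their stomata, and abscisic acid accumulates and drives a large part of the transcriptional response. Genes for protective proteins such as dehydrins, for compatible solutes and for detoxification are typically switched on, while genes for photosynthesis and growth are turned down. Leaf transcriptomes are usually dominated by a small number of very abundant photosynthesis transcripts. The table gives contigs by assembly identifiers that are not paired with gene names, so no contig is given a function here, and the leaf label could not be checked against leaf markers. In whole leaves, a lower level of a transcript may come from fewer cells of a type or from less RNA per cell, and these cannot be told apart.

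The RPKM totals of the 4 libraries were 778592 and 778862 in the control and 767581 and 764535 under drought. RPKM is already divided by library size, so these totals do not measure it. Read totals are unknown, but low values come in steps of what a single read is worth, and these steps put the depth relative to control replicate 1 at 0.92 in control replicate 2 and at 0.949 and 0.922 in the drought libraries. Over all 10 libraries this relative depth ran from 0.789 to 1.02. Among contigs with a group mean of at least 10 RPKM, the log2 difference between the 2 libraries had an SD of 0.150 under drought and 0.120 in the control. A difference of at least 2-fold between the 2 drought libraries was seen for 14 of 12913 such contigs, against 3 of 12479 in the control.

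Drought turned on a small set of contigs from near silence to high abundance, and it removed most of the transcript from some of the most abundant contigs of the leaf. Of the 26884 contigs tested, 1911 rose at least 2-fold, which is 7.11% of them, and 2160 fell at least 2-fold, which is 8.03%. A contig was called when limma's Benjamini-Hochberg adjusted p was under 0.05. At 8-fold, 208 contigs rose (0.774%) and 93 fell (0.346%), and at 32-fold the counts were 26 and 5. The 8-fold counts depended on the pseudocount, since 0.1 RPKM in place of 1 gave 335 raised and 234 lowered contigs, and 2 RPKM gave 56 lowered. Changes were taken on the log2(RPKM + 1) scale after scaling the libraries, which understates the change of low contigs. The balance at 2-fold depended on the scaling, since the values as deposited, without scaling, gave 2109 raised and 1890 lowered contigs. In each pairing of a drought with a control library, 1564 of the 1911 raised contigs (81.8%) and 1658 of the 2160 lowered contigs (76.8%) were past 2-fold. The same libraries chose these lists, so the shares describe the lists and are no independent support.

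Most of the contigs that limma called had moved by less than this. Without a size limit 16377 contigs were called, 60.9% of those tested, 8259 higher and 8118 lower, and 12306 of them (75.1%) changed by less than 2-fold. The split depended on the scaling, with 7147 higher and 9162 lower under upper-quartile scaling and 9348 and 7105 without scaling. The median size of a called change was 1.53-fold. Over all tested contigs the log2 change had a median of 0.00, with 25% below -0.39 and 25% above 0.35. The lowest 1% lay below -2.31 and the highest 1% above 2.73, so at this level the upper tail reached farther from 0 than the lower one. That was not so at 5%, where the limits were -1.28 and 1.24. The extremes were -6.10 and 8.15. The median, too, depended on the scaling, and was -0.044 with upper-quartile scaling and 0.035 without scaling.

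**Figure D1:**
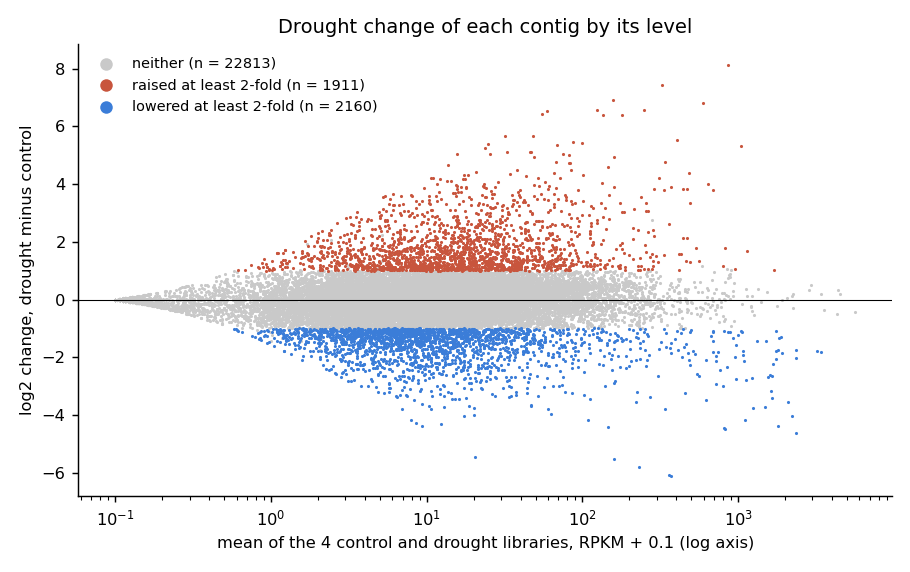
Log2 change of each tested contig between drought and control against its mean level in the 4 libraries (RPKM + 0.1, log axis), with the 1911 raised contigs in red, the 2160 lowered ones in blue and the others in grey. The largest rises reach a log2 change of 8.15, and lowered contigs extend to the highest levels, where few raised ones are found.

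Identifiers are given for the strongest changes among contigs that had no other contig of their subcomponent in the table. Contigs whose identifiers differ only in the last part are treated here as a subcomponent. Such contigs may share reads, so a contig that stands alone has the safer value. A further condition was a mean of at least 50 RPKM in the higher group.

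The largest rise by this rule was that of comp42656_c0_seq2. It had 1.85 and 1.22 RPKM in the control libraries and 248.81 and 242.73 RPKM under drought, a log2 change of 6.59 with an SE of 0.13 (limma, adjusted p = 4.6e-09). No other treatment came near that level. The salt libraries held 8.28 and 10.23 RPKM, the submergence libraries 4.51 and 5 RPKM and the heat libraries 5.46 and 5.07 RPKM. Set directly against heat, its drought level was higher by 5.44 on the log2 scale (limma, adjusted p = 1.06e-08), and against salt by 4.603 (adjusted p = 4.46e-08). The drought libraries that chose this contig and those that follow also enter the comparisons with other treatments, so these differences are no independent support.

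The next was comp47536_c0_seq1, with 0.39 and 0.19 RPKM in the control and 113.63 and 103.71 RPKM under drought. Its log2 change was 6.44 with an SE of 0.13 (limma, adjusted p = 4.89e-09). This contig was close to silent in most of the other libraries, at 2.05 and 2.71 RPKM under salt, 0.17 and 0.1 RPKM under submergence and 0.89 and 0.77 RPKM under heat. The drought libraries stood far above all 8 others, and the direct difference from heat was 6.004 on the log2 scale (limma, adjusted p = 6.21e-09).

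The largest falls belonged to contigs whose identifiers share the component number. comp48974_c0_seq1 had 730.09 and 728.37 RPKM in the control and 10.49 and 10.02 RPKM under drought, a log2 change of -6.10 with an SE of 0.08 (limma, adjusted p = 6.06e-10). comp48974_c3_seq1 had 711.95 and 716.34 RPKM in the control and 10.61 and 9.65 RPKM under drought, a log2 change of -6.09 with an SE of 0.15 (limma, adjusted p = 1.25e-08). In both contigs the drought libraries held little of the control level and the groups were far apart. Salt left much more of it, at 427.32 and 412.23 RPKM for the first and 429.95 and 411.59 RPKM for the second. Levels were lower still under heat and submergence. The first contig had 0.2 and 0 RPKM under heat and 0.76 and 0.64 RPKM under submergence, and its drought level was above that under heat by 3.42 on the log2 scale (limma, adjusted p = 8.37e-09). All 4 tested contigs with this component number fell, from means of 310 to 729 RPKM in the control to 6.11 to 10.3 RPKM under drought, with log2 changes of -6.10 to -5.54.

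The 10 largest rises by the same rule belonged to contigs of low control level, which ranking by fold favours. They had control means of 0.290 to 47.0 RPKM and drought means of 63.4 to 2041 RPKM, and their log2 changes ran from 5.13 to 6.59. Many were high under heat too, with a median of 132 RPKM there against 153 RPKM under drought. Set directly against heat, 6 were called higher under drought and 4 lower, at any fold (limma, adjusted p under 0.05). Against salt, all 10 were called higher under drought. The riser with the highest drought level went from 46.39 and 47.63 RPKM to 2044.67 and 2037.91 RPKM, with 423.28 and 413.89 RPKM under heat, 195.97 and 204.21 RPKM under salt and 26.5 and 26.07 RPKM under submergence. Its submergence level was thus below its control level, while the other treatments lay above it.

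For a fall the higher group is the control, so the rule itself requires at least 50 RPKM there. The 10 contigs with the largest falls had control means of 86.3 to 3026 RPKM, against 6.30 to 295 RPKM under drought. Their log2 changes ran from -6.10 to -3.24. One of them was high under submergence. It had 3063.91 and 2988.01 RPKM in the control, 292.92 and 298 RPKM under drought, 444.72 and 460.24 RPKM under heat, 4220.74 and 4210.18 RPKM under salt and 3562.84 and 3637.55 RPKM under submergence. Drought and heat were low there, and the other groups were as high as the control or higher.

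**Figure D2:**
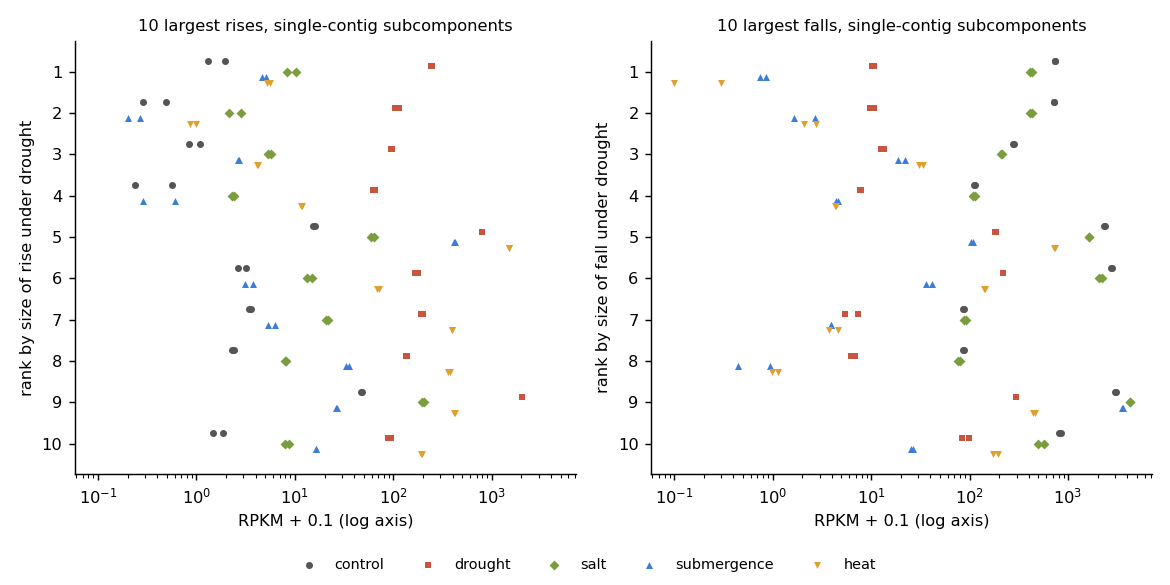
RPKM + 0.1 (log axis) in each of the 10 libraries for the 10 largest rises (left) and the 10 largest falls (right) under drought among contigs alone in their subcomponent, ordered by size of change, with 1 marker per library. The drought squares lie far to the right of the control circles on the left and far to their left on the right, and the salt diamonds lie between them or near the control in most rows.

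The most abundant contigs of the leaf were reordered. Of the 10 contigs with the highest control mean, 6 fell at least 2-fold under drought and 0 rose, and 4 changed by less. These contigs were chosen by their control level, so the counts are a description. The contig ranked first in the control also ranked first under drought, at 6332.48 and 6318.76 RPKM in the control and 5119.09 and 4892.12 RPKM under drought. The second had 5273.38 and 5281.67 RPKM in the control and 1559.39 and 1595.61 RPKM under drought, and dropped to rank 20. The fifth had 4406.55 and 4633.34 RPKM in the control and 189.77 and 192.37 RPKM under drought, and dropped to rank 540. Of the 10 contigs with the highest drought mean, 4 were also among the 10 highest of the control, and none of the 10 had changed at least 2-fold in either direction. These 10 were thus abundant in the control too. The second in drought, for example, had 3683.22 and 3836.76 RPKM in the control, where it ranked 11, and 5070.26 and 4872.70 RPKM under drought. The drought list, too, holds contigs that share a component number.

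The 100 contigs with the highest control mean held 24.9% and 25.2% of all RPKM in the control libraries and 13.3% and 12.9% in the drought libraries. The mean went from 25.05% ± 0.231 to 13.1% ± 0.270 (SD, n = 2 each; exact permutation test, two-sided, p = 0.333). With 2 against 2 libraries, 0.333 is the smallest p this test can give. The list was chosen on the control libraries, so some loss elsewhere is built in. The 100 highest contigs taken anew in every library held 25.05% ± 0.231 in the control and 17.2% ± 0.530 under drought (SD, n = 2 each). At 500 RPKM or more there were 173 contigs in the control, of which 83 were lowered and 3 raised at least 2-fold. Under drought there were 141, of which 22 were lowered and 32 raised. Each of these lists was chosen on libraries of the comparison, the first favouring falls and the second rises.

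Levels in the 6 salt, submergence and heat libraries gave a ranking by abundance that did not use the libraries compared. These 6 do enter the filter and limma's estimate of the spread. Of the 132 contigs that averaged 500 RPKM or more there, 50 fell at least 2-fold under drought (37.9%, against 8.03% of all tested contigs) and 12 rose (9.09%, against 7.11%). Their median log2 change was -0.27. Falls outnumbered rises under each scaling, with 49 to 52 lowered and 9 to 12 raised. The 50 falls are not independent cases, since several belong to a single subcomponent of 10 contigs that all fell. In the band from 200 to 500 RPKM, 51 of 264 contigs fell (19.3%) and 32 rose (12.1%). In the bands between 20 and 200 RPKM rises were the more frequent under each scaling. Of the 2456 contigs from 50 to 200 RPKM, 289 rose (11.8%) and 210 fell (8.55%), and the median log2 change was 0.17. From 20 to 50 RPKM, 479 of 5454 rose (8.78%) and 337 fell (6.18%), or 428 and 384 with upper-quartile scaling. Among the 5560 contigs from 1 to 5 RPKM, falls were again more frequent under each scaling, with 534 lowered (9.60%) and 261 raised (4.69%). In the largest band, the 12255 contigs from 5 to 20 RPKM, the balance turned with the scaling, from 953 lowered and 821 raised to 828 lowered and 905 raised without scaling. Of the 763 contigs under 1 RPKM, 25 fell (3.28%) and 17 rose (2.23%). Contigs this low in the 6 libraries can pass the filter through the control or drought libraries alone, so these counts are only a description.

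**Figure D3:**
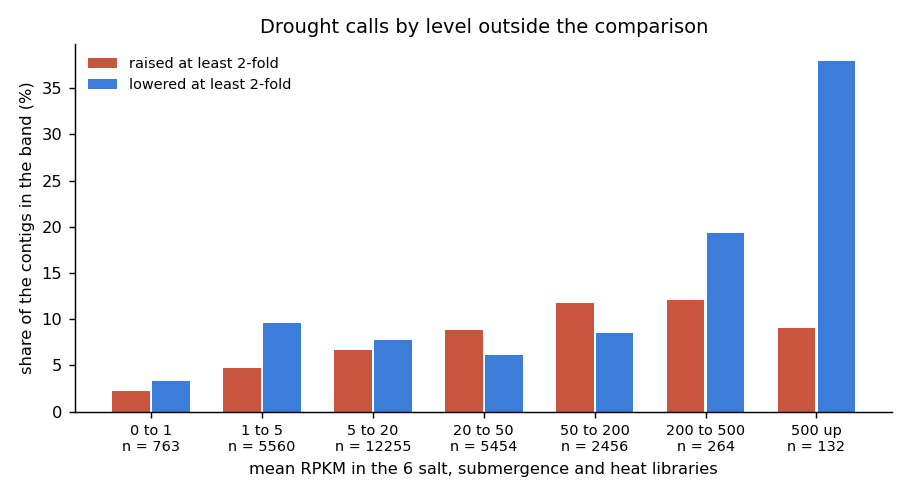
Share of contigs raised (red) and lowered (blue) at least 2-fold by drought, in bands of mean RPKM over the 6 salt, submergence and heat libraries. These lie outside the 2 groups compared, but enter the filter and the estimate of the spread. Lowered contigs reach 37.9% of the band from 500 RPKM up, and raised contigs outnumber lowered ones in the 2 bands between 20 and 200 RPKM.

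The share of all RPKM held by the changed contigs gives the scale of the response. The 1911 raised contigs held 3.68% and 3.65% of all RPKM in the control libraries and 15.6% and 15.5% under drought. The 2160 lowered contigs held 26.6% and 26.6% in the control and 7.37% and 7.25% under drought. These lists were chosen by this contrast, so the shares describe its size and test nothing. The 208 contigs raised at least 8-fold made up 4.39% and 4.31% of the RPKM under drought, from 0.222% and 0.222% in the control, and their median level went from 3.10 to 63.9 RPKM. For the 93 contigs lowered at least 8-fold, the median level went from 40.55 to 4.21 RPKM.

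In the libraries that did not choose them, the same contigs had other shares. The raised list held 13.9% and 13.9% of the RPKM under heat, 8.402% and 8.470% under submergence and 4.92% and 4.87% under salt. The lowered list held 9.81% and 9.86% under heat, 12.85% and 12.95% under submergence and 23.1% and 22.7% under salt. Heat-treated leaves were thus nearest to the droughted leaves in both shares, and salt-treated leaves nearest to the control.

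**Figure D4:**
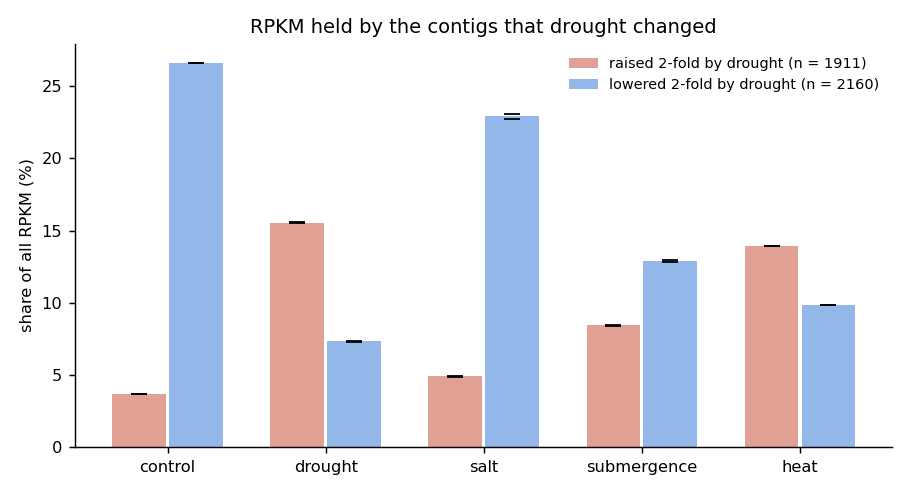
Share of all RPKM (%) held by the contigs raised (red) and lowered (blue) at least 2-fold by drought, as the mean of 2 libraries per group, with each library as a black dash. The raised contigs go from 3.67% in the control to 15.5% under drought and 13.9% under heat, and the lowered ones from 26.6% to 7.31% and 9.83%.

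The direct comparisons of drought with the other treatments show where the droughted leaf was set apart. Over all tested contigs, 1590 were at least 2-fold higher under drought than under salt (5.91%) and 1845 lower (6.86%). Against heat, 3182 were higher under drought (11.8%) and 2169 lower (8.07%), and against submergence 4224 were higher (15.7%) and 4803 lower (17.9%). The drought libraries enter these comparisons and the one with the control, so the following counts only describe the drought lists. Of the 1911 raised contigs, 1372 were higher under drought than under salt and none lower, by limma at 2-fold and an adjusted p under 0.05. Their median level was 5.87 RPKM in the control and 24.95 RPKM under drought. It was 8.41 RPKM for salt, 10.7 RPKM for submergence and 21.9 RPKM for heat. Against heat, 522 of the 1911 were higher under drought (27.3%) and 225 lower (11.8%). By the means as deposited, without scaling, heat was the higher in 888 of them, against 14730 of all 26884 tested contigs. After scaling, the median log2 difference of drought from heat was 0.22 in the 1911 and 0.00 over all tested contigs.

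The lowered contigs had medians in the reverse order. Their median level was 14.0 RPKM in the control and 4.41 RPKM under drought. It was 11.8 RPKM for salt, 9.62 RPKM for submergence and 4.57 RPKM for heat. Of the 2160, 1414 were lower under drought than under salt. Against heat, 413 were higher under drought (19.1%) and 349 lower (16.2%), so neither treatment was uniformly the stronger one. Against submergence, 891 were lower under drought (41.2%) and 284 higher (13.1%).

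Subcomponents, each summed over its contigs, gave a picture close to that of single contigs. Of 18244 subcomponents tested, 1195 rose (6.55%) and 1276 fell (6.99%) at least 2-fold. Among subcomponents with more than 1 contig and a mean of at least 50 RPKM in the higher group, the largest rise went from 1.95 and 1.74 RPKM in the control to 467.16 and 391.66 RPKM under drought. Heat reached 135.89 and 139.17 RPKM there, and the salt libraries 11.86 and 9.99 RPKM. The next went from 10.95 and 12.45 RPKM to 1861.3 and 1788.95 RPKM, and reached 1147.57 and 1150.79 RPKM under heat. Of the 5 largest rises, 4 had under 10 RPKM in both submergence libraries, while their heat libraries lay between 135.89 and 1150.79 RPKM.

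A subcomponent of 10 contigs that was among the most abundant of the control lost most of its level under drought. It summed to 25271.2 and 26119.9 RPKM in the control, 3.25% and 3.35% of all RPKM, and to 2194.46 and 2123.23 RPKM under drought, 0.286% and 0.278%. All lowered contigs together went from a mean of 26.6% to 7.31%. The log2 change of the sum was -3.67 with an SE of 0.06. Its 10 contigs all fell, with log2 changes from -4.64 to -2.09, and 3 of them were among the 10 most abundant contigs of the control. Salt left it at 21504.6 and 20915.5 RPKM, whereas submergence lowered it to 2508.4 and 2618.52 RPKM and heat to 3930.25 and 4057.14 RPKM. Drought, submergence and heat were thus all far below the control, and salt was near it.

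Another subcomponent, of 15 contigs, set drought against submergence. It had 941.11 and 960.33 RPKM in the control and 76.3 and 75.2 RPKM under drought, but 5346.13 and 5516.35 RPKM under submergence. Heat gave 309.14 and 297.35 RPKM, and salt 701.03 and 672.83 RPKM, both below the control.

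The largest rise of all tested contigs came with a change in the make-up of its subcomponent, which has 2 contigs. That contig had 4.33 and 5.36 RPKM in the control and 1764.72 and 1672.7 RPKM under drought, a log2 change of 8.15 with an SE of 0.21 (limma, adjusted p = 1.74e-08). It made up 12.5% and 15.8% of the RPKM of the subcomponent in the control and 74.6% and 74.5% under drought. In heat-treated leaves, where the sum was 1328.53 and 1350.94 RPKM, its share was 13.9% and 12.8%. The share under salt was 32.4% and 30.5%, and under submergence 1.71% and 3.13%. Among the 5 groups, the contig held the larger part of the subcomponent in the droughted leaves alone.

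Such unequal changes within a subcomponent were tested across the table with limma's diffSplice, which compares each contig's change with that of the other contigs of its subcomponent. Of 13528 contigs tested in 4876 subcomponents, 1144 differed by at least 1 on the log2 scale at an adjusted p under 0.05, which is 8.46%, and they lay in 587 subcomponents. The test treats contigs as independent, although they can share reads, so its p-values may be too small. Drought raised every tested contig at least 2-fold in 191 of the 4876 subcomponents and lowered every one in 203. In 52 it raised at least 1 contig and lowered at least 1 other at least 2-fold. The sum of the subcomponent did not change at least 2-fold in 41 of those 52, and the median log2 change of their sums was 0.20. Most sums in the table behaved so, since only 6.55% of the 18244 tested rose and 6.99% fell at least 2-fold. Choosing subcomponents with both directions also favours a small change of the sum.

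A pair of examples with both directions was chosen after the values were seen. In both, the leading raised and the leading lowered contig passed the diffSplice test. Among such subcomponents they ranked highest by the lower of 2 levels, the raised contig's drought mean and the lowered contig's control mean. In the first, a subcomponent of 13 contigs, 5 were raised and 6 lowered at least 2-fold. Its most abundant raised contig went from 121.31 and 120.5 RPKM to 346.76 and 349.86 RPKM, while its most abundant lowered contig went from 73.9 and 79.11 RPKM to 28.5 and 26.27 RPKM. The sum of the 13 contigs had a log2 change of 0.52. In the second, with 4 contigs, 2 were raised and 1 lowered. The leading ones went from 18.93 and 15.04 to 65.02 and 66.37 RPKM and from 53.55 and 54.43 to 23.18 and 26.18 RPKM, and the log2 change of the sum was 0.00. In the second subcomponent the lowered contig was the higher one in the control and the raised contig the higher one under drought.

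**Figure D5:**
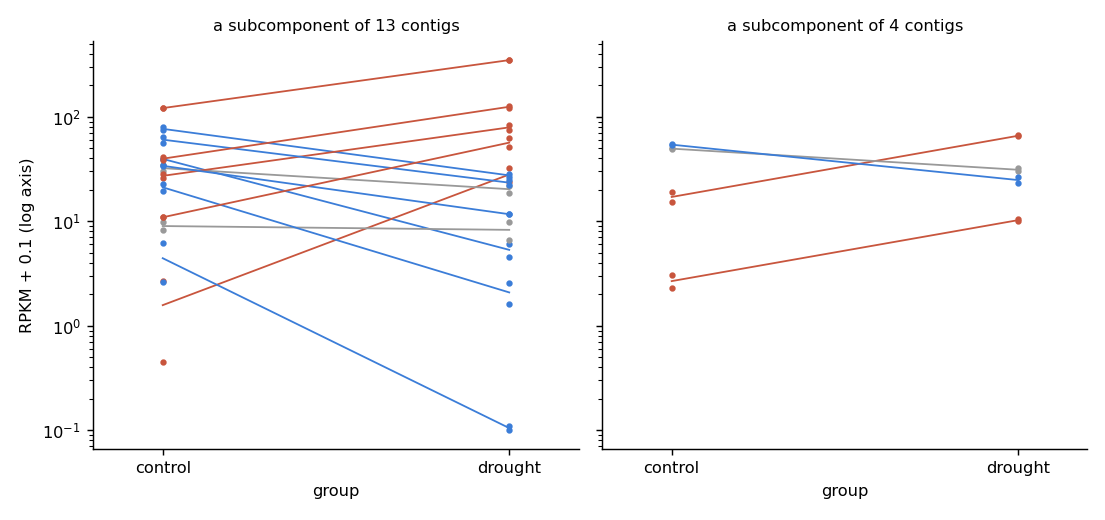
RPKM + 0.1 (log axis) of every tested contig of the 2 example subcomponents in the control and drought libraries, with points for libraries and lines between group means, red for contigs raised and blue for contigs lowered at least 2-fold, and grey for the others. The lines cross, with 5 raised and 6 lowered contigs on the left and 2 raised and 1 lowered on the right.

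Some contigs were listed at 0 in one of the groups. The libraries held 2482 and 2604 contigs at 0 in the control and 2812 and 2868 under drought, a mean of 2543 ± 86.3 against 2840 ± 39.6 (SD, n = 2 each; exact permutation test, two-sided, p = 0.333). Contigs at 0 in both control libraries and at 1 RPKM or more in both drought libraries numbered 15, with a median of 3.81 RPKM under drought, and 9 of them belong to subcomponents with other contigs, as do 50.5% of all tested contigs. The highest of the 15 had 30.25 and 31.55 RPKM under drought, 4.24 and 3.64 RPKM under salt and was listed at 0 in the other 6 libraries. The opposite pattern was found for 14 contigs, 12 of them with other contigs in their subcomponent. The highest of these had 51.26 and 29.84 RPKM in the control, 46.15 and 14.21 RPKM under salt and was listed at 0 in both drought libraries. It was at or near 0 under the other treatments too, with 0.23 and 0 RPKM under submergence and 0 and 0.01 RPKM under heat. An exact 0 in values of this kind can be a failed estimate, so no fold is given.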

How the data were processed

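Leaf RNA was sequenced in 10 libraries. Per the labels' protocols, RNA was isolated with a Qiagen RNeasy mini kit and libraries followed Illumina's protocols. Per the submitters' processing notes, the tools were DESeq 1.18.0, HTSeq 0.6.1, TopHat2 2.0.12 and Bowtie2 2.2.3, with no roles. The assembly is not given in the sources used here. Table values are RPKM, per the file headers, deposited with 2 decimals and 1 column per library. Read totals are unknown, so no counting interval is given.

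Scaling factors came from trimmed means of log ratios (30% of ratios, 5% of levels). Limma 3.58.1 (R 4.3.3) was run on log2(RPKM + 1) with a trend in the variance, the group as its only term, all 10 libraries and 5 residual degrees of freedom. The filter of 1 RPKM in 2 or more libraries left out 1572 contigs. Adjusted p-values are Benjamini-Hochberg values over all tested contigs. RPKM values in the text are as deposited. Identifiers are printed for the 2 largest rises and 2 largest falls among called contigs with at least 50 RPKM in the higher group and no other contig in the subcomponent. Other contigs are described by rank. The contigs compared, lists and tests were chosen with earlier results of these data known. Python 3.11.15, pandas 2.3.3 and scipy 1.17.1 were used for descriptions. Alternatives covered scaling, pseudocount, filter, libraries in the fit, variance trend, threshold, dropping each library in turn and a replicate block.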

Additional observations from a re-analysis of the deposited data

How the results depend on the processing

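Under the 21 alternative settings of the fit, the counts of contigs raised and lowered at least 2-fold, of those called at any fold, of subcomponent sums, of unequal changes within subcomponents and of direct differences from salt and heat stayed within 1.5 times the reported counts. Counts at 8-fold moved with the pseudocount: 0.1 RPKM gave 335 raised and 234 lowered contigs, and 2 RPKM gave 56 lowered. With each library left out in turn, raised contigs numbered 1899 to 1991, lowered ones 2142 to 2201, and calls at any fold 14490 to 16317. Upper-quartile scaling gave 1694 raised and 2438 lowered contigs at 2-fold, and the values without scaling gave more raised than lowered ones. The 4 named contigs kept their direction and their calls under every setting, with adjusted p-values from limma of at most 0.000688. With a replicate block, 1910 contigs rose and 2162 fell at least 2-fold. The replicate differences of drought and control had a correlation of 0.0584 across contigs, and over all pairs of groups it ran from -0.0533 to 0.253. The highest was between drought and salt, and 8 of the 10 pairs of groups were under 0.1, so equal numbers were not treated as pairs. The difference between drought and control in the share of RPKM of the 100 highest contigs, and in contigs at 0, kept its direction under each alternative. A share within a library cannot change with its scaling factor. For the share, only the list taken anew in each library and the dropping of libraries could have differed. Unknown read depth and 2 libraries per group limit what can be said of low contigs.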

Other observations

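A few of the most abundant contigs differed between the 2 drought libraries by far more than the rest. Of the 141 contigs with a drought mean of at least 500 RPKM, 5 differed by more than 1.3-fold between the libraries. The one that differed most had 1417.51 RPKM in drought replicate 1 and 336.32 RPKM in replicate 2, a ratio of 4.21. Its control libraries held 264.33 and 319.03 RPKM, and its submergence libraries 688.98 and 217.21 RPKM, a ratio of 3.17. Another had 1979.85 and 584.14 RPKM under drought, 440.67 and 570.2 RPKM in the control and 1097.59 and 482.12 RPKM under submergence. The heat libraries of all 5 were close to each other, with ratios of replicate 1 to replicate 2 from 0.890 to 1.05. The 2 contigs whose drought values are given above make up a single subcomponent. Another of the 5 shares their component number, so the 5 are not independent cases. In each of the 5, replicate 1 was above replicate 2 both under drought and under submergence. The contig ranked eighth in both the control and the drought mean is among them, with 3284.92 and 4451.47 RPKM in the control and 3625.03 and 2774.56 RPKM under drought. None of the 5 passed limma's threshold between drought and control, with adjusted p-values of 0.121 to 0.966, and their means should be read with this spread. Of the 14 contigs that differed at least 2-fold between the drought libraries, 11 were higher in replicate 1 and 10 have other contigs in their subcomponent, as do 50.5% of all tested contigs.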
